A study of Mus musculus with 11 samples.

Results

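The vascular endothelial growth factor (VEGF) and angiopoietin system was described here through 10 genes in single cells of the mouse brain cortex. The genes were the VEGF ligands Vegfa, Vegfc and Pgf, their receptors Flt1, Kdr and Flt4, the angiopoietins Angpt1 and Angpt2, and the Tie receptors Tek and Tie1. They were taken by name, and all 10 were among the 23940 genes kept of 26921 listed. Myelin-depleted cortex of untreated C57BL/6 mice was compared at juvenile (postnatal day 10), adult (7 to 11 weeks) and aged (18 months) stages, and after experimental autoimmune encephalomyelitis (EAE). EAE was induced in female mice of 7 to 11 weeks with the myelin peptide MOG35–55 in Complete Freund's Adjuvant and with pertussis toxin, and tissue was taken at the peak of disease. The adult controls were labelled as untreated, so that adjuvant and toxin cannot be told apart from the disease. Each library came from tissue pooled over 6 mice (4 juvenile and 3 adult libraries) or 3 mice (2 aged and 2 EAE libraries), and the study's methods give female mice unless stated otherwise.

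VEGF-A, secreted by cells around a vessel, binds the tyrosine kinase receptors VEGFR2 (Kdr), which carries most of its signal for endothelial growth and permeability, and VEGFR1 (Flt1), which binds it tightly and limits its supply to VEGFR2. Placental growth factor (Pgf) binds VEGFR1 alone, and VEGF-C (Vegfc) acts mainly through VEGFR3 (Flt4). Angiopoietin-1 activates Tie2 (Tek) and keeps vessels quiet and tight, angiopoietin-2 opposes it in many settings and is known to rise in sprouting and inflamed endothelium, and Tie1 is a partner receptor that modulates Tie2.

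On mm10 (GRCm38) the ligand genes lie at chr17:46016993-46032369 (Vegfa), chr8:54077606-54187096 (Vegfc), chr12:85166635-85177790 (Pgf), chr15:42424723-42676977 (Angpt1) and chr8:18690263-18741562 (Angpt2). The receptor genes lie at chr5:147561604-147726011 (Flt1), chr5:75932827-75978458 (Kdr), chr11:49609263-49652739 (Flt4), chr4:94739289-94874976 (Tek) and chr4:118471191-118490061 (Tie1).

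Kdr, Tek and Tie1 fell together in the endothelial cells of EAE mice, as described further on, and the promoters of these 3 receptor genes are shown for that reason. Each runs from 250 bases before to 50 bases after the RefSeq start on GRCm38.p6, 5′ to 3′ on the strand of the gene. Capitals mark GGAA, the core motif of ETS factors, a transcription factor family of endothelial cells, and its reverse complement TTCC.
Kdr, chr5:75978406-75978705, minus strand: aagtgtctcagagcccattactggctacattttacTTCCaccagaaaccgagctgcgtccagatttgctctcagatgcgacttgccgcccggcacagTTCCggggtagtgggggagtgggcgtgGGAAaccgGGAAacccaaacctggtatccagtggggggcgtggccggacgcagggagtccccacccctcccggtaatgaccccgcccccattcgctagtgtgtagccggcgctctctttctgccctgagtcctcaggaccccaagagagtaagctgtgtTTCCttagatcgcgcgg
Tek, chr4:94739039-94739338, plus strand: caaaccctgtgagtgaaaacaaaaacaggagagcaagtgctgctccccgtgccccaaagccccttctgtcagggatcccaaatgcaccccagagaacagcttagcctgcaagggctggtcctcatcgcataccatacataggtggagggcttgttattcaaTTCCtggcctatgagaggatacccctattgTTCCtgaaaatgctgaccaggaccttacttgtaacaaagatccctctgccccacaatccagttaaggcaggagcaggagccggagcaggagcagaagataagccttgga
Tie1, chr4:118489800-118490099, minus strand: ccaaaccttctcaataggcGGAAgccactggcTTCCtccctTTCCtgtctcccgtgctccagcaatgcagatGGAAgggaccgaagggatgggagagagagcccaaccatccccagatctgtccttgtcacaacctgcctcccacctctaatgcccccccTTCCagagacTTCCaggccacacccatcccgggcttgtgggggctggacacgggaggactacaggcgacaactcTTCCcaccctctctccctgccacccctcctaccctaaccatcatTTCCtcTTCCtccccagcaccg

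The Tie1 window held 9 matches, the Kdr window 5 and the Tek window 2. Of all 32851 promoters of this length in the table, 96.0% held at least 1 match, and the median was 3. As many matches as in Tie1 were found in 1.59% of them, against 28.6% for Kdr and 84.6% for Tek. The match is a short word and a description of these letters, and the share for Kdr and Tek was that of common promoters. The windows of Flt1 and Flt4, the receptors that read higher in EAE ECs, held 4 and 2 matches. As many were found in 46.3% and 84.6% of promoters. A promoter was listed for 8 of the 10 genes, not for Angpt1 and Angpt2.

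Unique molecular identifier (UMI) counts of the 11 libraries summed to between 15755504 and 34326349, over 54646 barcodes, of which 50625 passed the study's limits on genes and mitochondrial share. Clusters were named from marker lists that held none of the 10 genes, and each name below stands for cells like that type. The kept cells held 21085 endothelial cells (ECs), 8809 microglia (Micro), 6677 choroid plexus epithelial cells (Choroid), 1501 mural cells and 1337 astrocytes. The choroid plexus cells are not a cortical cell type, although the tissue was labelled as cortex. Levels are given as CPM, in which the UMIs of a gene are scaled to the sum of all UMIs of the cells of that type in a library. Counts were taken at transcript 3′ ends and not per length, so levels are compared between cells and conditions and not between genes. Within a condition some libraries stood close together. For the ECs, the chi-square per degree of freedom was 1.38 to 2.26 for Adult 2 with 3, Juvenile 1 with 2 and Juvenile 3 with 4, but 11.4 to 31.6 between these sets and the other libraries of their condition. Each such pair was therefore summed and counted as 1 sample. The 2 aged libraries (2.47) and the 2 EAE libraries (1.88) were also close, but no other library of their condition existed to compare with them, and they were kept apart in the main tests and summed in an alternative given beside the results. Means and tests between conditions are thus over 2 samples per condition, and p-values measure the spread between these samples, which may be technical. The tests between juvenile EC subtypes kept the 4 libraries apart, so that their p-values rest on 2 near-identical pairs, and they were run again with each pair summed. Free RNA was present in the droplets. Ttr, the secreted carrier protein of choroid plexus epithelium, was read in ECs at 48300 CPM in Adult 1, at 16396 and 17268 CPM in Adult 2 and 3, and at 3735 to 8616 CPM elsewhere. No more than 125 cell barcodes were shared by any 2 libraries.

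The receptors were found in ECs and the ligands mostly in other cells. Flt1, Kdr, Tek and Tie1 had their highest level in ECs in 11 of 11 libraries, and Flt4 in 10 of 11. The exception for Flt4 was Aged 2, where 13 neurons read 76.3 CPM on 2 UMIs. Vegfa was highest in astrocytes in 11 of 11 libraries. Pgf was highest in cerebral fibroblasts (Fibro) in 8 libraries and in mural cells in 3, and Vegfc was highest in ECs in 9 libraries and in fibroblasts in the 2 EAE libraries. The fibroblast level of Vegfc in EAE rested on 2 UMIs over 38 cells, against 207 UMIs in EAE ECs. The order of these types in EAE is therefore not settled. Angpt1 and Angpt2 had no single leading type, since mural cells, fibroblasts, astrocytes, neurons or ECs led in different libraries. Tests between cell types compared ECs, mural cells, astrocytes, choroid plexus cells, fibroblasts, microglia and perivascular macrophages. Neurons, monocytes and the remaining types were left out of them. Against the mean of the other cell types compared, over all conditions, 7 members were higher and 3 lower in ECs by edgeR's quasi-likelihood test at an adjusted p of 0.05, where 67.6% of all genes were called (37.9% higher and 29.7% lower). The 7 were the 5 receptors, with log2 differences of 4.16 to 4.62, Vegfc (3.35 ± 0.21, SE) and Angpt2 (2.15 ± 0.28). The 3 lower ones were Vegfa, Angpt1 and Pgf, and Pgf lost its call without the sample as a block (adjusted p = 0.125).

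**Figure D1:**
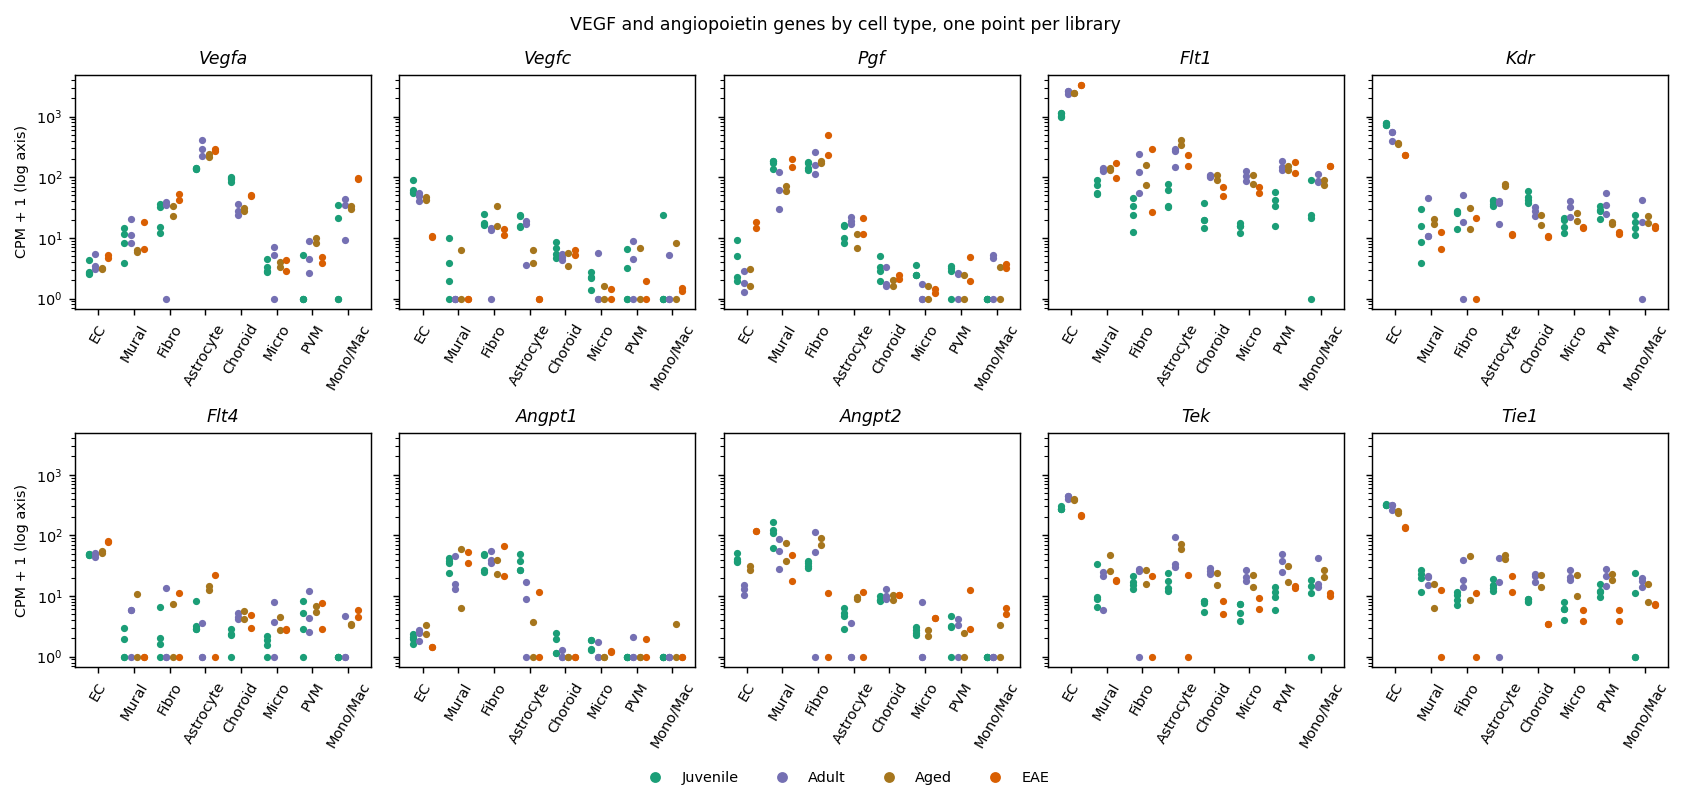
Level of each of the 10 genes (CPM + 1, log axis) in 8 cell types, with 1 point per library with at least 10 cells of the type, coloured by condition. The 5 receptors stand highest in ECs, Vegfa in astrocytes and Pgf in fibroblasts and mural cells.

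Outside ECs the receptors were read at lower levels, except Flt4 in the neurons of Aged 2. The EC level was at least 4.0 times that of the next type for Flt1, 3.48 for Kdr, 3.4 for Tek and 3.01 for Tie1. The next type at these lowest ratios was neurons, of Aged 2 (13 cells) or EAE 2 (28 cells). Microglia and macrophages are known to use Flt1 themselves, and microglia read it at 10.8 to 127 CPM, with Kdr at 11.3 to 40.3 CPM and Tek at 2.89 to 25.8 CPM. These levels were not particular to microglia. Mean adult Tek was 19.6 CPM in microglia and 9.99 (B cells) to 44.3 CPM (astrocytes) in the other non-EC types. The part of free RNA in these levels was not tested. For shares of cells, each cell was thinned to 1500 UMIs and cells with fewer were left out. A Kdr UMI was then seen in 26.3 to 63.6% of ECs per sample and in 1.71 to 5.17% of microglia, at median depths before thinning of 2244 to 7714 and 2317 to 3543 UMIs. For Tek the shares were 26.3 to 48.0% of ECs and 0.487 to 2.64% of microglia.

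Vegfa was read in astrocytes, choroid plexus epithelium and monocytes and macrophages (Mono/Mac). Astrocyte Vegfa was 140, 138, 140.0 and 136 CPM in the juvenile libraries, 219.8, 417 and 293 in the adult, 237 and 212 in the aged, and 293 and 272 in the EAE libraries. All 4 juvenile libraries lay below every other library. The juvenile level was lower than the adult by 1.16 ± 0.22 on the log2 scale (edgeR, adjusted p = 0.000849), and of 5 members tested in astrocytes Vegfa and Flt1 were called, both lower, where 10.4% of all genes were called and 6.42% were lower. Microglia read Flt1 at 10.8 to 16.4 CPM in juvenile and 86.5 to 127 CPM in adult libraries, and the part of free RNA in the astrocyte difference was not tested. By edgeR and by DESeq2, no member of the 5 passed in aged astrocytes (0.379% of genes called by edgeR) or in EAE astrocytes (1.95%), with 2 and 1 at an unadjusted p under 0.05, and Vegfa differed from adult by -0.38 ± 0.23 and 0.07 ± 0.27. After thinning, a Vegfa UMI was seen in 16.6 and 18.1% of juvenile, 26.4 and 32.1% of adult and 29.6 and 36.7% of EAE astrocytes, against at most 0.608% of microglia. The adult and EAE levels rest on 153 and 72 astrocytes, and the thinned shares on fewer, 87 and 28 adult and 30 and 27 EAE astrocytes per sample.

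In choroid plexus epithelium Vegfa was higher in juvenile than in adult mice. Over all conditions Vegfa was higher there by 2.71 ± 0.18 than in the other types compared, which did not include Mono/Mac cells. In this contrast 5 members were lower, where 74.8% of all genes were called (36.1% higher and 38.7% lower). The 5 were Pgf, Angpt1, Flt1, Tek and Tie1, of which Tek and Tie1 lost their calls without the sample as a block (adjusted p = 0.0725 and 0.173). Vegfa was 82.1 to 98.4 CPM in the 4 juvenile libraries, 35.02, 22.7 and 27.1 CPM in the adult, 30.0 and 26.6 CPM in the aged, and 48.4 and 49.5 CPM in the EAE libraries. The juvenile and EAE libraries did not overlap the adult ones. The log2 difference from adult was 1.48 ± 0.14 in juvenile (adjusted p = 5.86e-07) and 0.59 ± 0.14 in EAE (adjusted p = 0.00541) choroid plexus cells by edgeR. The EAE call was lost when the aged and EAE libraries were each summed (log2 difference 0.62, adjusted p = 0.0709) and without EAE 2 (adjusted p = 0.0548). Of the 9 members tested there, 2 were higher and 4 lower in juvenile cells, where 51.1% of all genes were called (25.3% higher and 25.8% lower), none was called in aged cells (1.3%, with 0 at an unadjusted p under 0.05 and none by DESeq2), and 1 was higher and 4 lower in EAE cells (31.4%, 15.2% higher and 16.2% lower). The second higher member in juvenile cells was Kdr (0.68 ± 0.19). The lower ones were Flt1 (-2.34 ± 0.22), Flt4 (-1.795 ± 0.43), Tek (-2.13 ± 0.25) and Tie1 (-1.47 ± 0.24) in juvenile cells, and Flt1 (-0.95 ± 0.21), Kdr (-1.54 ± 0.22), Tek (-2.25 ± 0.27) and Tie1 (-3.05 ± 0.30) in EAE cells. Tie1 stood at 15.8 to 22.4 CPM in adult and 2.45 and 2.46 CPM in EAE choroid plexus cells, beside 17.5 to 25.8 and 2.87 and 4.79 CPM in microglia, and the part of free RNA in these differences was not tested. Most juvenile choroid plexus cells (83.9%) came from a cluster of their own, and the EAE cells were split between clusters, with 54.5% in another.

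In EAE, Mono/Mac cells held Vegfa at 93.4 and 97.3 CPM, against 8.36, 33.4 and 42.8 CPM in the adult and 31.98 and 28.4 CPM in the aged libraries. The adult libraries held only 18, 48 and 40 such cells, the aged 109 and 99 and the EAE libraries 1085 and 990. The difference of EAE from the others was not put to a test. At a finer clustering (resolution 0.9) the Mono/Mac cluster held 45 adult and 1741 EAE cells, and a cluster led by Napsa, Plbd1 and Ccl22 besides MHC class II genes, which stayed unnamed, held 61 adult and 332 EAE cells. The class was thus split in other proportions in the adult and EAE libraries, and Vegfa was not compared within these clusters. Of the 1927 Vegfa UMIs read in EAE cells, 60.9% were in Mono/Mac cells and 28.0% in choroid plexus cells. In adult tissue, 69.9% of 861 were in choroid plexus cells and 14.6% in astrocytes, shares that follow the cells recovered as much as their levels.

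Vegfc was highest in arterial ECs among the named subtypes of mature mice. In ECs it was 88.9, 53.2, 56.8 and 60.6 CPM in the juvenile, 39.97, 53.3 and 48.8 CPM in the adult, 45.5 and 41.6 CPM in the aged, and 9.73 and 9.26 CPM in the EAE libraries. The EAE libraries lay far below all others, and juvenile and adult libraries touched at Juvenile 2 and Adult 2. Within ECs, arterial cells held 318 to 515 CPM in adult and 328 to 498 CPM in juvenile libraries, while capillary and postcapillary venular ECs (CapV) held 4.95 to 12.7 CPM in the same libraries. Capillary and precapillary arteriolar ECs (CapA) held 309 to 488 CPM in juvenile but 101 to 108 CPM in adult and 69.2 and 82.9 CPM in aged libraries. Venous ECs held 33.5 to 55.4 CPM in juvenile, 71.4 and 62.8 CPM in Adult 2 and 3, and 114 and 91.5 CPM in aged libraries, on 11 to 17 UMIs in each of these adult and aged libraries. In aged mice venous ECs thus read higher than CapA ECs, and after thinning a Vegfc UMI was seen in 18.2 and 11.8% of aged venous against 7.96 and 8.94% of aged CapA ECs, on 6 and 4 venous cells with a UMI. This difference was not tested. Arterial ECs were 3.78% of adult ECs and held 34.3% of their Vegfc UMIs, and CapA ECs were 21.1% and held 44.2%. ECs of unnamed subclusters were left out of the subtype tests. In the aged libraries 66 such cells held Vegfc at 316 to 383 CPM, above the arterial ECs there (279 to 289 CPM). They held 233.5 CPM in Adult 2+3 (50 cells) and 74.3 to 198 CPM in EAE (35 cells).

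The endothelial subtypes were clusters made from the same cells without the 10 genes, so that the tests between them are not independent of the clustering. Arterial ECs were higher in Vegfc than the mean of the other named subtypes, by 3.41 ± 0.17 on the log2 scale in juvenile (adjusted p = 2.23e-35) and 3.76 ± 0.20 in mature (adult, aged and EAE) mice (adjusted p = 1.75e-15). With the juvenile pairs summed the juvenile difference was 3.38 (adjusted p = 4.64e-53). Of the members, 5 were higher and 1 lower in juvenile arterial ECs (21.2% of all genes called, 12% higher and 9.16% lower), and 4 higher and 2 lower of 8 tested in mature arterial ECs (29%, 15.9% higher and 13.1% lower). Besides Vegfc, Tek (1.19 ± 0.11 and 0.80 ± 0.11) and Angpt1 (5.38 ± 0.98 and 7.86 ± 0.59) were higher at both stages, and Kdr was lower (-1.73 ± 0.11 and -2.88 ± 0.17). Juvenile CapA ECs read Tek and Vegfc about as high as arterial ones. Their means were 590.5 against 591.2 CPM for Tek and 415 against 384 CPM for Vegfc. Arterial ECs were not tested against CapA ECs alone. The other higher members were Vegfa (3.04 ± 0.73) and Pgf (3.78 ± 0.95) in juvenile arterial ECs, on 0 to 6 and 1 to 7 UMIs per library, and Tie1 (0.66 ± 0.10) in mature ones, where Angpt2 was the other lower member (-2.02 ± 0.35). Angpt1 in arterial ECs rested on 10 UMIs in juvenile and 23, 23 and 7 UMIs in adult, aged and EAE libraries, so that its level was 0 to 48.2 CPM and its fitted difference depends on the prior count.

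In EAE the level of Vegfc was lower within subtypes too. Arterial ECs held 72.1 and 113 CPM against 279 to 515 in adult and aged libraries, and CapA ECs held 28.3 and 25.7 CPM against 69.2 to 108. Venous ECs held 4.93 and 10.0 CPM. Arterial ECs made up 1.35% of EAE ECs and 3.78% of adult ECs, a difference that was not tested. Over all ECs the log2 difference from adult was -2.10 ± 0.16 (edgeR, adjusted p = 2.45e-05), and it remained called with the aged and EAE libraries each summed (-2.05, adjusted p = 0.00264). In juvenile ECs Vegfc was higher by 0.56 ± 0.14 (adjusted p = 0.0118), a call lost with those libraries summed (adjusted p = 0.0652).

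**Figure D2:**
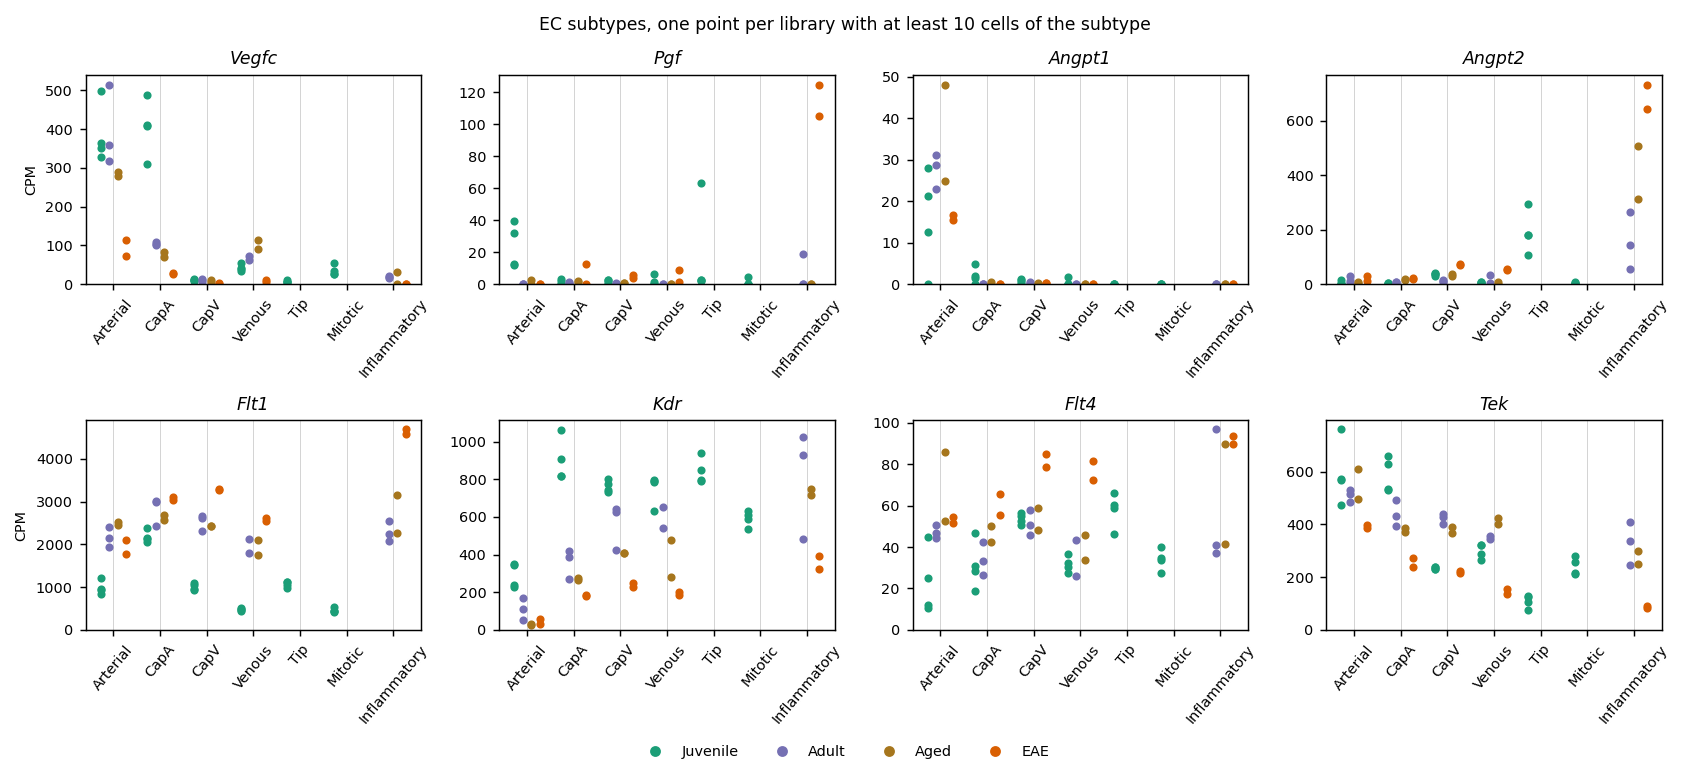
Levels (CPM) of 8 of the genes in EC subtypes, with 1 point per library holding at least 10 cells of the subtype. Unnamed ECs are not shown. Among the subtypes shown, Vegfc is highest in arterial ECs in adult and aged mice and is also read in CapA and venous ECs. It stands at 72.1 and 113 CPM in the arterial ECs of EAE. Angpt2 is highest in inflammatory-like and juvenile tip ECs, and Kdr is low in arterial ECs.

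Pgf was a ligand of fibroblasts and smooth muscle cells (SMC). Fibroblast Pgf was 130, 143, 171 and 179 CPM in juvenile, 160, 113 and 259 CPM in adult, 172 and 186 CPM in aged, and 504 and 235 CPM in EAE libraries, on 18 to 40 fibroblasts per mature library. The conditions overlapped. SMCs held 243 to 277 CPM in juvenile, 164, 232 and 44.7 CPM in adult, and 244 and 296 CPM in EAE libraries, and pericytes held 33.0 to 85.5, 13.4 to 72.6, and 36.3 and 117 CPM. In the aged libraries SMCs held 241 and 122 CPM and pericytes 13.02 and 48.6 CPM, which overlapped the adult values. SMCs were 261 of 530 juvenile, 61 of 414 adult, 32 of 260 aged and 63 of 205 EAE mural cells, so a difference in the mural sum between conditions mixes the share of SMCs with the level per cell, and these were not told apart. Against the other cell types Pgf was higher by 5.08 ± 0.30 in fibroblasts and 4.21 ± 0.29 in mural cells, where 40.4% of all genes (18.2% higher and 22.2% lower) and 47.9% (21.3% higher and 26.6% lower) were called. In fibroblasts Angpt1, Angpt2, Vegfc and Vegfa were higher too and Flt1, Kdr, Tek and Tie1 lower, and in mural cells Angpt1 and Angpt2 were higher too and Vegfc and the 5 receptors lower. Without the sample as a block, the calls of Tie1 in fibroblasts (adjusted p = 0.0575) and of Flt1, Tek and Tie1 in mural cells (adjusted p = 0.0676, 0.0551 and 0.121) were lost. Mural Pgf was higher in juvenile than adult mice by 1.44 ± 0.38 (adjusted p = 0.0211, with 1 of 4 members tested higher, 1 lower, and 17.4% of all genes called, 8.13% higher and 9.31% lower). This call was lost without Adult 1 (0.84, adjusted p = 0.118), without Juvenile 1+2 (adjusted p = 0.0934), with the aged and EAE libraries each summed (adjusted p = 0.10) and in DESeq2 (adjusted p = 0.0666). Flt1, the lower one, was 52.3 to 88.3 CPM in juvenile and 125 to 143 CPM in adult mural cells, beside 10.8 to 16.4 and 86.5 to 127 CPM in microglia, and the part of free RNA in this difference was not tested. It lost its call in DESeq2 (adjusted p = 0.141) and without Juvenile 1+2 (adjusted p = 0.0851). By edgeR and by DESeq2, none of the 4 passed in aged (0.0337% of genes called by edgeR) or EAE mural cells (1.03%), with 0 and 1 at an unadjusted p under 0.05, and in EAE Pgf differed from adult by 1.51 ± 0.42 with an adjusted p of 0.141.

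ECs held little Pgf except in EAE. The level was 17.5 and 13.6 CPM in the EAE libraries and 0.276 to 8.31 CPM in all others. Of the 339 UMIs in EAE ECs, 69.9% came from an inflammatory-like cluster that held 7.82% of EAE ECs and 60 adult ECs, and there 22 of 266 cells of EAE 1 and 25 of 289 cells of EAE 2 had a Pgf UMI. The cluster was named from Lcn2, Mt1, Mt2 and Ctla2a, and its leading genes also held the tip cell markers Plaur and Adm. The log2 difference of EAE from adult ECs was 4.02 ± 0.89 (edgeR, adjusted p = 0.0222), on 21 adult UMIs, and it was lost with any adult or EAE sample left out (adjusted p = 0.0658 to 0.101), without the inflammatory-like cluster (2.47, adjusted p = 0.101), with no filter on low counts (adjusted p = 0.082), and with the aged and EAE libraries each summed (adjusted p = 0.145).

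**Figure D3:**
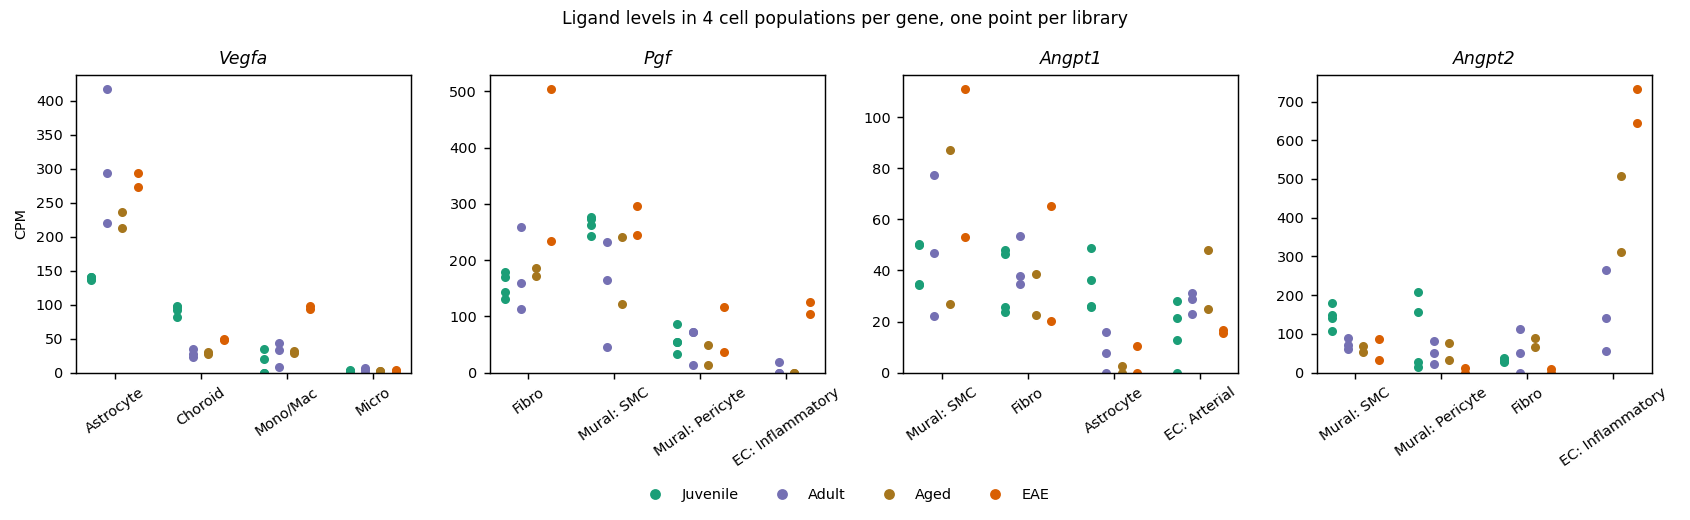
Levels (CPM) of Vegfa, Pgf, Angpt1 and Angpt2 in 4 cell populations each, with 1 point per library with at least 10 cells. Vegfa stands at 136 to 417 CPM in astrocytes and at 93.4 and 97.3 CPM in EAE Mono/Mac cells, and Angpt2 reaches 645 and 733 CPM in the inflammatory-like ECs of EAE.

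Among the 10 members tested in ECs, 3 were higher and 2 lower in juvenile than adult mice (34.5% of all genes called, 17.7% higher and 16.8% lower), 1 was higher in aged mice (3.17%, 1.55% higher), and 4 were higher and 4 lower in EAE (23.8%, 13.8% higher and 9.99% lower). The 3 contrasts share the adult libraries. The ECs of the conditions came largely from different clusters, with 84.4% of juvenile ECs in one, 63.3% of adult ECs in another, and 51.2% of EAE ECs in a further one. Yet another cluster held 67.9% of aged, 45.8% of EAE and 15.2% of adult ECs. A change between conditions may thus come from other cells or from the level per cell, and these were not told apart except where subtypes are given.

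**Figure D4:**
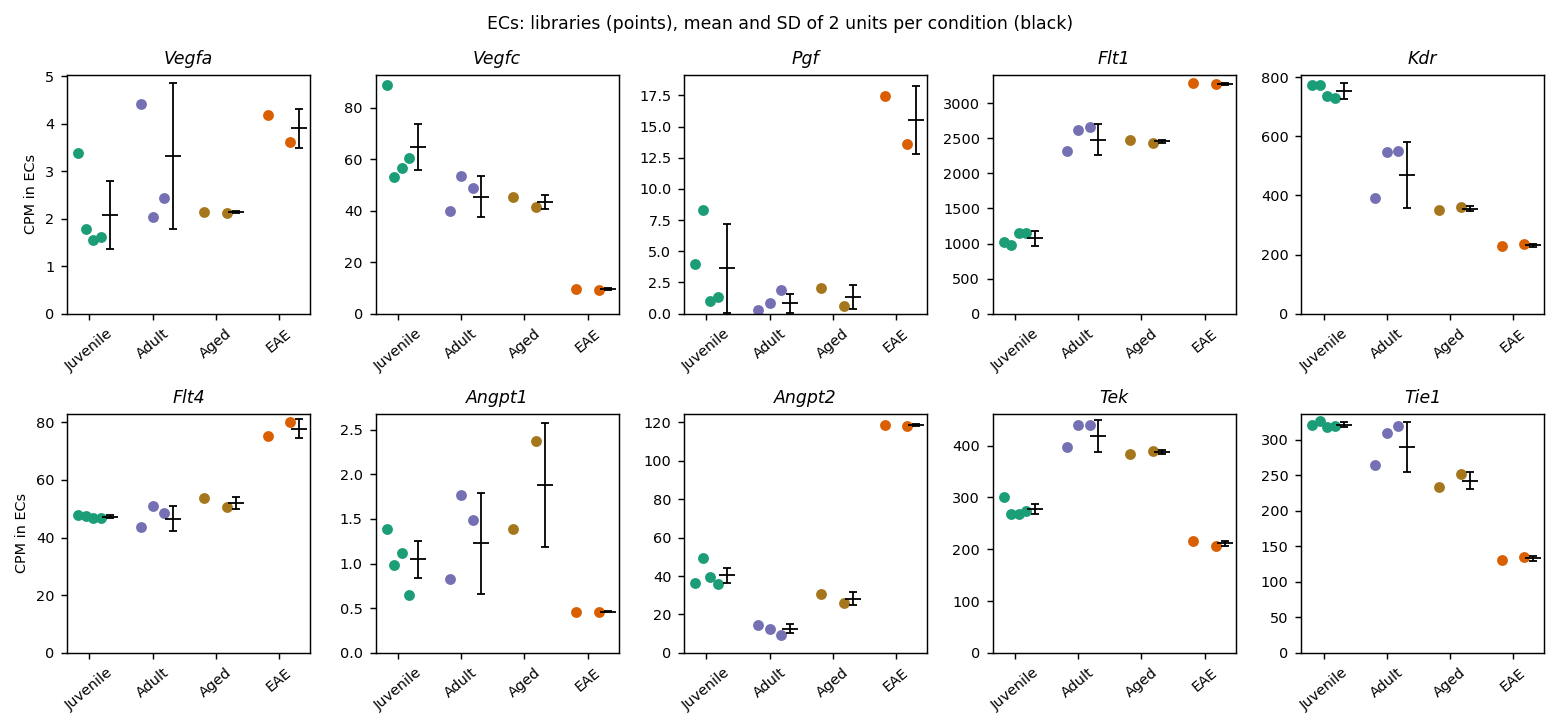
Level of each gene in ECs (CPM), with 1 point per library and, in black, the mean and SD of the 2 samples per condition. In EAE, Angpt2, Flt1, Flt4 and Pgf stand above and Vegfc, Kdr, Tek, Tie1 and Angpt1 (on 5 UMIs in each EAE library) below every library of the other conditions.

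Flt1, the high-affinity VEGF-A receptor, was lowest in juvenile and highest in EAE ECs. It was 979 to 1156 CPM in juvenile, 2325, 2615 and 2664 CPM in adult, 2474 and 2441 CPM in aged, and 3291 and 3272 CPM in EAE libraries. Juvenile and EAE libraries each stood apart from the adult ones, and the aged libraries lay within them. Counts per gene do not separate the membrane receptor from its soluble form. The log2 difference from adult was -1.12 ± 0.15 in juvenile (adjusted p = 0.000343) and 0.59 ± 0.14 in EAE (adjusted p = 0.0173). The EAE call was lost with the aged and EAE libraries each summed (0.63, adjusted p = 0.296) and without Aged 1, Aged 2, EAE 1 or EAE 2 (adjusted p = 0.0531 to 0.156, log2 differences 0.57 to 0.61).

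Flt1 differed between juvenile subtypes. CapA ECs held 2048 to 2386 CPM, CapV ECs 921 to 1101 CPM, venous ECs 448 to 520.5 CPM and mitotic ECs 411 to 540.3 CPM. The venous level was lower than that of the other subtypes by 1.16 ± 0.08 on the log2 scale (adjusted p = 2.28e-27). In juvenile venous ECs, 1 member was higher and 2 lower (18.9% of all genes called, 12.3% higher and 6.55% lower). The higher one, Tek, lost its call with the juvenile pairs summed (0.24, adjusted p = 0.0948) and without the library as a block (adjusted p = 0.0932), which also ended the call of Angpt2, 1 of the lower ones (adjusted p = 0.0789). In mature venous ECs 1 of 8 was higher (25%, 15% higher). In adult libraries CapA (2430 to 3012 CPM), CapV (2306 to 2658 CPM) and venous ECs (1799 and 2121 CPM in Adult 2 and 3) stood closer together. In EAE the inflammatory-like ECs held 4690 and 4581 CPM.

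Kdr, the main signalling receptor of VEGF-A, ran the other way. It was 773, 772, 735 and 730.4 CPM in juvenile, 391, 548 and 549.7 CPM in adult, 349 and 360.5 CPM in aged, and 228 and 235 CPM in EAE ECs. The 4 conditions did not overlap. Kdr was higher in juvenile ECs by 0.76 ± 0.15 (adjusted p = 0.00427) and lower in EAE by 0.84 ± 0.15 on the log2 scale (adjusted p = 0.00451). The EAE call was lost with the aged and EAE libraries each summed (-0.80, adjusted p = 0.188) and without EAE 1 (adjusted p = 0.058). In aged ECs Kdr differed by -0.40 ± 0.15 (adjusted p = 0.175), and this passed without Adult 1 (-0.62, adjusted p = 0.00816) and with all 11 libraries apart (adjusted p = 0.0289).

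The lower Kdr of EAE was read in most subtypes. CapV ECs held 228 and 249 CPM in EAE against 427 to 641 CPM in adult libraries, CapA ECs 177 and 187 CPM against 271 to 421 CPM, and venous ECs 203.5 and 183 CPM against 539 and 652 CPM in Adult 2 and 3 (361 CPM on 7 cells in Adult 1). Inflammatory-like ECs held 391 and 321 CPM against 485 to 1024 CPM. Of the named subtypes, only in arterial ECs, where adult libraries ranged from 49.7 to 172 CPM, did the EAE libraries (56.7 and 33.4 CPM) overlap them. Kdr was higher in mature venous ECs than in the mean of the other subtypes (0.61 ± 0.13, adjusted p = 0.000247), but not without the sample as a block (adjusted p = 0.125). Venous means were 604 (Adult 2+3), 378 (aged) and 193 CPM (EAE). CapV means were 531, 409 and 239 CPM, and inflammatory-like means 729, 731 and 356 CPM. CapA means were 337.5, 271 and 182 CPM, and arterial means 126, 28.6 and 45.1 CPM. In the 2 juvenile libraries with at least 10 fenestrated ECs, these held Kdr at 1579 and 1788 CPM.

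Flt4, the VEGF-C receptor, was low and even across the ages. It was 46.7 to 48.0 CPM in juvenile, 43.6, 50.9 and 48.6 CPM in adult, 53.6 and 50.6 CPM in aged, and 75.4 and 80.0 CPM in EAE ECs. Only the EAE libraries stood apart. Flt4 was higher in EAE by 0.91 ± 0.11 (adjusted p = 0.000415) and stayed called with the aged and EAE libraries each summed (0.96, adjusted p = 0.0283). In EAE, CapV ECs held 78.7 and 84.9 CPM, venous ECs 81.4 and 72.6 CPM and arterial ECs 51.5 and 54.3 CPM, against 46.0 to 57.8 CPM in CapV, 26.0 and 43.5 CPM in venous (Adult 2 and 3, on 30 and 43 cells) and 44.5 to 50.6 CPM in arterial ECs of adult libraries. Adult 1 had 7 venous ECs and no Flt4 UMI in them. Inflammatory-like ECs overlapped, at 93.8 and 90.0 CPM in EAE and 96.9, 37.1 and 40.9 CPM in adult libraries, on 13, 2 and 2 adult UMIs.

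Angpt2 in ECs separated all 4 conditions. It was 36.6, 49.5, 39.4 and 35.6 CPM in juvenile, 14.3, 12.2 and 9.58 CPM in adult, 30.6 and 26.0 CPM in aged, and 119 and 118 CPM in EAE libraries. The order ran from adult through aged and juvenile to EAE. It was higher than in adult ECs by 1.82 ± 0.15 in juvenile (adjusted p = 2.12e-05), 1.24 ± 0.15 in aged (adjusted p = 0.0046) and 3.48 ± 0.15 in EAE mice (adjusted p = 1.18e-06). The EAE call stayed with the aged and EAE libraries each summed (3.501, adjusted p = 9.85e-05), while the aged one was lost (1.26, adjusted p = 0.137), as it was without Aged 1 (1.11, adjusted p = 0.07). At 1500 UMIs per cell, an Angpt2 UMI was seen in 10.2% of EAE ECs in both samples, 1.64 and 1.65% of adult ECs, 2.73 and 3.48% of aged ECs and 3.52 and 4.66% of juvenile ECs, against at most 0.656% of microglia.

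Small EC clusters held a large part of Angpt2. The inflammatory-like cluster held 7.82% of EAE ECs and 55.2% of their 2580 Angpt2 UMIs, at 733 and 645 CPM, against 508 and 311 CPM in aged and 142, 55.6 and 266 CPM in adult libraries, which had 10 to 31 such cells each. Without this cluster the level was 57.2 and 60.2 CPM in EAE against 7.9 to 11.9 CPM in adult ECs, and the log2 difference was 2.72 (adjusted p = 2.09e-06). CapV ECs, the largest subtype, held 69.4 and 74.3 CPM in EAE, 36.1 and 28.4 CPM in aged and 9.30 to 13.9 CPM in adult libraries. Arterial ECs, at 30.9 and 12.5 CPM in EAE, overlapped the adult range of 2.62 to 31.2 CPM.

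In juvenile mice Angpt2 was a gene of tip ECs, the cells that lead vessel sprouts. The tip cluster of 278 cells was 8.89% of juvenile ECs and held 43.1% of their Angpt2 UMIs, at 181, 295, 182 and 106 CPM, against 30.3 to 40.1 CPM in CapV and 1.54 to 3.18 CPM in CapA ECs. The log2 difference from the other subtypes was 4.50 ± 0.17 (edgeR, adjusted p = 1.77e-47), from 4 libraries that form 2 near-identical pairs, and 4.57 (adjusted p = 8.59e-68) with each pair summed. Of the 10 members, 5 were higher and 2 lower in tip ECs, where 27.8% of all genes were called (17.8% higher and 10% lower). Kdr (0.36 ± 0.07, adjusted p = 1.3e-05) and Flt4 (0.80 ± 0.18, adjusted p = 0.000152) were higher too, against the mean of the other subtypes. Mean Kdr was 851 CPM in tip, 909 in CapA and 1659 CPM in fenestrated ECs (Juvenile 1+2). The other named subtypes held 292 (arterial) to 763 CPM (CapV). Mean Flt4 was 58.5 CPM in tip, 53.6 in CapV, 57.0 in fenestrated and 59.2 CPM in unnamed ECs. The other subtypes held 22.9 (arterial) to 34.4 CPM (mitotic). Tek was lower by 1.37 ± 0.11 (adjusted p = 1.77e-20), at 74.9 to 126 CPM in tip and 231 to 239 CPM in CapV ECs, and Vegfc was lower by 3.35 ± 0.33. Pgf in tip ECs rested on 1 cell of Juvenile 2 with 29 of the 30 UMIs there, and Flt1 (0.22 ± 0.07) lost its call in DESeq2 (adjusted p = 0.06) and without Juvenile 4 (adjusted p = 0.0521).

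Mural cells were a further source of Angpt2. They held 164, 123, 108 and 61.4 CPM in juvenile, 26.5, 54.2 and 85.1 CPM in adult, 36.6 and 74.4 CPM in aged, and 17.0 and 45.7 CPM in EAE libraries. Juvenile and adult libraries overlapped, and the difference (1.25 ± 0.45) had an adjusted p of 0.083. It passed without Adult 2+3 (2.08, adjusted p = 0.0148) and without Juvenile 3+4 (1.54, adjusted p = 0.0245). Juvenile pericytes held 209 and 157 CPM in Juvenile 1 and 2 but 26.3 and 13.7 CPM in Juvenile 3 and 4, whereas juvenile SMCs held 107 to 179 CPM in all 4. Against the other cell types Angpt2 was higher in mural cells by 2.78 ± 0.34.

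Angpt1, the Tie2 agonist, was read at low counts in mural cells, fibroblasts, astrocytes and neurons. Mural cells held 22.8 to 41.99 CPM in juvenile, 12.03, 44.3 and 15.0 CPM in adult, 5.24 and 59.5 CPM in aged, and 33.9 and 51.4 CPM in EAE libraries. These ranges overlapped, and no condition passed the test in mural cells. It was higher than in the other cell types by 3.997 ± 0.34 in mural cells and 4.13 ± 0.35 in fibroblasts. Neurons led in 3 of 11 libraries, as often as mural cells and as fibroblasts. They held 16.1, 29.9, 33.1 and 16.8 CPM in the juvenile libraries, on 7 to 18 UMIs each, and 0 to 40.4 CPM in the mature ones, on 0 to 2 UMIs each. Juvenile astrocytes held 36.4, 49.0, 26.1 and 25.8 CPM, against 0 to 16.1 CPM in the 7 mature libraries, on 99 UMIs in juvenile and 4, 1 and 1 UMIs in adult, aged and EAE astrocytes. Over all conditions Angpt1 was higher in astrocytes by 2.85 ± 0.37 (edgeR, adjusted p = 2.39e-09) than in the other types compared, which did not include neurons. In this contrast 2 members, Vegfa and Angpt1, were higher and 1, Angpt2, lower, where 53% of all genes were called (24.2% higher and 28.8% lower). The age difference of Angpt1 in astrocytes was not tested, since the gene did not pass the filter there.

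Tek, the angiopoietin receptor, was lower in juvenile and EAE than in adult ECs, but not in each juvenile subtype. It was 300.5, 269, 268 and 273 CPM in juvenile, 397, 440.2 and 440.3 CPM in adult, 385 and 390 CPM in aged, and 215 and 207 CPM in EAE libraries. Juvenile and EAE libraries lay below all adult and aged ones, and aged ECs differed from adult by -0.11 ± 0.10 (adjusted p = 0.583). The log2 difference was -0.51 ± 0.10 in juvenile (adjusted p = 0.00409) and -0.81 ± 0.10 in EAE (adjusted p = 0.000629), and both calls were lost with the aged and EAE libraries each summed (adjusted p = 0.099 and 0.126). In EAE every named subtype read lower than in adult libraries. CapV ECs held 222 and 216 CPM against 401 to 441 CPM, arterial ECs 386 and 397 CPM against 483 to 531 CPM, and inflammatory-like ECs 82.8 and 90.0 CPM against 246 to 408 CPM. Thinned shares with a Tek UMI were 26.8 and 26.3% of EAE against 44.4 and 47.9% of adult ECs.

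Tie1, the partner receptor, fell in EAE ECs. It was 318 to 327 CPM in juvenile, 265, 310.2 and 320 CPM in adult, 234 and 252 CPM in aged, and 131 and 136 CPM in EAE libraries. Juvenile ECs differed from adult by 0.23 ± 0.11 (adjusted p = 0.14) and aged ECs by -0.25 ± 0.11 (adjusted p = 0.232). The EAE libraries stood apart, at -0.94 ± 0.11 on the log2 scale (adjusted p = 0.000428), and this call was lost with the aged and EAE libraries each summed (-0.89, adjusted p = 0.0764). CapV ECs held 126 and 136 CPM in EAE against 258 to 306 CPM in adult libraries, and inflammatory-like ECs 104 and 77.8 CPM against 223 to 368.5 CPM. Microglia read Tie1 at 17.5 to 25.8 CPM in adult and 2.87 and 4.79 CPM in EAE libraries, at a small part of the EC level, and the part of free RNA in the EC difference was not tested.

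**Figure D5:**
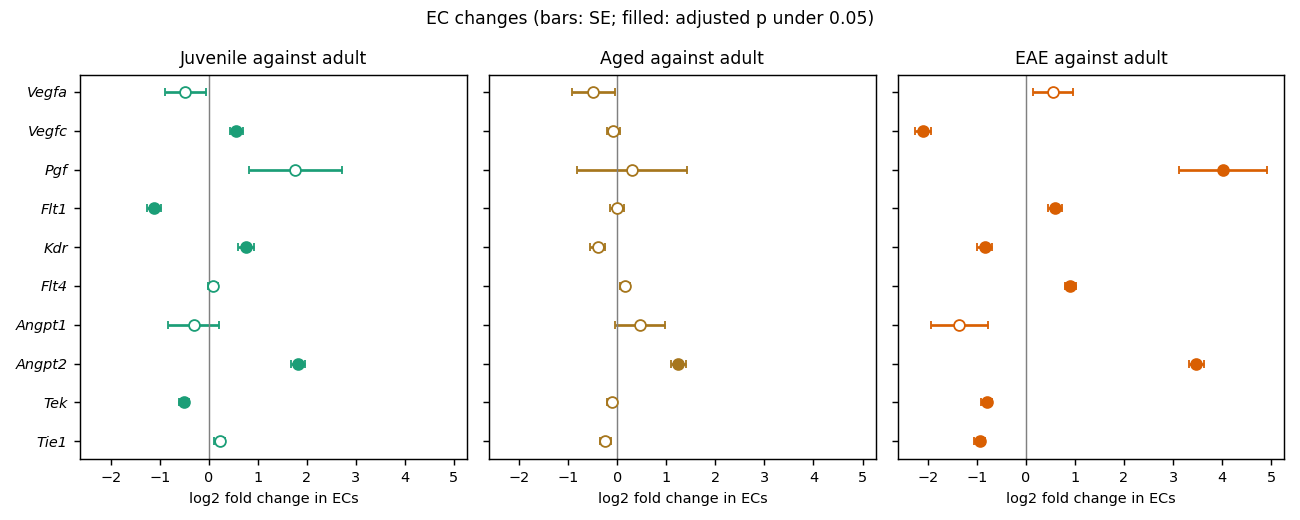
Log2 fold change of each gene in ECs against adult, for juvenile, aged and EAE mice (points, bars are SE, filled where the adjusted p was under 0.05). Only Angpt2 is called in all 3 comparisons, and in EAE Vegfc, Kdr, Tek and Tie1 lie below 0 and Angpt2, Pgf, Flt4 and Flt1 above it.

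Other genes of the pathway were followed with a list of 23, of which 18 could be tested in ECs. In EAE, 6 were higher and 2 lower, where 23.8% of all genes were called, and their median log2 difference was 0.38 against 0.00 over all genes. Hif1a, a subunit of the hypoxia-inducible factors that drive Vegfa, was 123 ± 0.935 CPM (SD, n = 2) in EAE against 48.1 ± 7.24 CPM in adult ECs, a difference of 1.51 ± 0.12 (adjusted p = 2.62e-05). Egln1, a prolyl hydroxylase that marks these factors for decay, was higher by 0.96 ± 0.17, and Plcg1, a phospholipase downstream of VEGFR2, by 0.59 ± 0.10. Nrp1, a co-receptor of VEGF-A, was lower by 1.42 ± 0.13 on the log2 scale (117 ± 2.36 against 352 ± 64.9 CPM, adjusted p = 0.000106), and Nos3, the endothelial nitric oxide synthase, by 0.70 ± 0.14. In juvenile ECs, 2 were higher and 4 lower, a share near the 34.5% of all genes called. The higher ones were Nrp2 (1.07 ± 0.31), a co-receptor of VEGF-C, and Hif1a (0.53 ± 0.11), and the named lower ones were Tnip2 (-0.93 ± 0.16), Ptprb (-0.70 ± 0.13), the phosphatase that opposes Tie2, and Epas1 (-0.52 ± 0.13). In aged ECs 1 was higher, Hif1a (0.62 ± 0.12, adjusted p = 0.0253), and 1 lower, where 3.17% of all genes were called.

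In mural cells 2 of the 8 pathway genes tested were lower and none higher in juvenile mice, where 17.4% of all genes were called and 9.31% were lower, and none was called in aged or EAE mice by edgeR, with 1 and 0 at an unadjusted p under 0.05. In astrocytes 1 of 10 was higher and 1 lower in juvenile mice, where 10.4% of all genes were called, and none was called in aged or EAE mice, with 2 at an unadjusted p under 0.05 in each. In choroid plexus cells 10 of 18 were higher and 4 lower in juvenile mice, where 25.3% of all genes were higher and 25.8% lower, none was called in aged mice (1 at an unadjusted p under 0.05), and 5 were higher and 3 lower in EAE, where 15.2% of all genes were higher and 16.2% lower.

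The genes whose levels ran most like those of the members were found over 102 sums of 1 sample and 1 cell type (14 types), by Pearson's r of log2(CPM + 1) among 12130 genes. The sums share libraries and the difference between ECs and other cells, and r is given as a description. The closest genes were Adora2b for Vegfa (r = 0.68), Fbln5 for Vegfc (0.66), Alx4 for Pgf (0.82), Fstl1 for Angpt1 (0.74) and Col4a1 for Angpt2 (0.74). For the receptors they were Ly6c1 for Flt1 (0.90), Mmrn2 for Kdr (0.71), Cldn5 for Flt4 (0.73), Rasip1 for Tek (0.81) and Sox17 for Tie1 (0.79).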

How the data were processed

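Cortex suspensions depleted of myelin were captured with the 10X Chromium 3′ v2 chemistry. The authors deposited raw UMI counts per gene and cell barcode, 1 matrix per library, with no normalization. Per the labels' processing notes, reads were handled with UMI-tools 0.5.3, STAR 2.5.3a on mm10 and featureCounts 1.6.1. The study's methods name later versions.

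The study's limits were applied here (over 500 and under 6000 genes, under 25% mitochondrial counts, genes in at least 3 cells), leaving 50625 of 54646 barcodes. Library totals ranged from 15755504 to 34326349 UMIs. Doublets were called with Scrublet in each library (1144, 2.26%). They were kept in the main fits, except that 206 cells of subclusters with at least 30% doublets were set aside. Cells were clustered with Seurat 5.3.0 in R 4.3.3. The 10 genes and the 23 pathway genes were left out of the clustering and of the marker lists. The score limits for names were chosen once cluster scores had been looked at, and cell type clusters with an unclear name stayed unnamed (379 cells). Subclusters with an unclear name also stayed unnamed and were left out of the subtype tests. They held 529 of 3128 juvenile, 66 aged and 35 EAE ECs and 50 ECs of Adult 2+3. In the juvenile libraries 14, 17, 5 and 4 mural cells were unnamed. The members and lists were chosen with earlier results of these data known.

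UMIs were summed per type and sample (11 libraries as 8 samples, near-identical pairs summed) and tested with edgeR 4.0.16 (quasi-likelihood, TMM, filterByExpr, Benjamini-Hochberg over all genes, adjusted p of 0.05). Cell type and subtype contrasts had the sample or library as a block. The rule for named genes took all 10 members in every comparison (the text names those that passed and gives the others as counts or levels), and of the pathway list at most the 5 largest called changes with at least 20 CPM, with the gene called Vegfd here listed under another symbol. Scripts were tested on simulated data. Alternatives were DESeq2 1.42.0, median-of-ratios size factors, no filter, no doublets, all libraries apart, a replicate block, another clustering resolution and each sample left out. The summed aged and EAE libraries, the summed juvenile pairs in the subtype tests and the ECs without the inflammatory-like cluster were added after the data were seen. Coordinates are from GENCODE on GRCm38, and promoters from RefSeq.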

Additional observations from a re-analysis of the deposited data

Results flagged for a closer look

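In groups of 4 juvenile libraries, a library was marked when its gap to the nearest other was above Dixon's critical share of the range, which chance does in about 1 of 20 groups of independent libraries. The juvenile libraries form 2 near-identical pairs, so this rate need not hold for them. Of 117 groups, 12 were marked. Flt1 in ependymal cells was 44.2 CPM in Juvenile 3 (others 26.2 to 29.2 CPM) and in SMCs 25.1 CPM in Juvenile 1 (40.2 to 42.8 CPM). Kdr in venous ECs was 630.1 CPM in Juvenile 3 (784 to 794 CPM) and in fibroblasts 12.8 CPM in Juvenile 1 (24.4 to 26.4 CPM). Pgf in tip ECs was 63.2 CPM in Juvenile 2 (1.83 to 2.69 CPM), from a single cell with 29 UMIs, and in microglia 2.60 CPM in Juvenile 4 (1.44 to 1.47 CPM). Tek in ECs was 300.5 CPM in Juvenile 1 (268 to 273 CPM) and in mural cells 32.5 CPM in Juvenile 4 (5.71 to 8.55 CPM). Tie1 in CapA ECs was 464 CPM in Juvenile 2 (382 to 394 CPM) and in venous ECs 411 CPM in Juvenile 4 (323 to 332 CPM). Vegfa in ECs was 3.38 CPM in Juvenile 1 (1.54 to 1.78 CPM), and Vegfc in fibroblasts was 23.5 CPM in Juvenile 2 (15.2 to 16.4 CPM).

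Flt1 was called in opposite directions in EAE, with log2 differences of 0.59 in ECs and -0.95 in choroid plexus cells, and Vegfa in juvenile mice, with -1.16 in astrocytes and 1.48 in choroid plexus cells. The difference between the cell types was not itself tested.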

How the results depend on the processing

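Over all alternatives no member changed direction while called. Of the values of members that passed, 1148 kept their call and 77 lost it, and of those that did not pass, 1262 stayed so and 41 passed. The counts of genes called moved more. With the aged and EAE libraries each summed, genes called in ECs went from 4878 to 2583 in juvenile, from 447 to 1 in aged and from 3359 to 578 in EAE, in mural cells from 1034 to 585, 2 to 0 and 61 to 2, and in choroid plexus cells from 167 to 35 in aged and 4052 to 1551 in EAE. With no filter on low counts, calls rose to 840 in aged ECs, 29 in aged and 253 in EAE mural cells, 64 in aged and 235 in EAE astrocytes (26 and 134 with it), and 548 in aged choroid plexus cells. DESeq2 called 397 genes in juvenile and 1 in aged mural cells, 318 in juvenile (717 by edgeR) and 14 in aged astrocytes, and 2467 in EAE choroid plexus cells. With all 11 libraries apart, calls were 1315 in aged ECs, 108 in EAE mural cells, 48 in aged astrocytes and 318 in aged choroid plexus cells. Without doublets, 1 gene was called in aged mural cells.

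Leaving out 1 sample gave 15 to 1122 calls in aged and 1060 to 4011 in EAE ECs, 476 to 1059 in juvenile, 0 to 6 in aged and 13 to 277 in EAE mural cells, 237 to 861 in juvenile, 4 to 88 in aged and 74 to 293 in EAE astrocytes, and 4265 to 6662 in juvenile, 15 to 498 in aged and 1808 to 4582 in EAE choroid plexus cells. The lone sample is then assumed to vary like the other conditions. The lowest values came without Aged 1 (15) and EAE 2 (1060) in ECs, and without Juvenile 3+4 (4265) in choroid plexus cells.

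Replicate numbers did not pair the libraries. The 13 same-numbered pairs had correlations of -0.177 to 0.088. A replicate block with 11 libraries called 1235 genes in aged ECs, 83 in aged and 242 in EAE astrocytes and 489 in aged choroid plexus cells. Among members it brought mural Angpt2 (adjusted p = 0.027) and astrocyte Tek (adjusted p = 0.0154) in juvenile mice past the threshold and ended no member's call. Of the member calls in cell type and subtype tests, 50 were kept and 10 lost without the sample or library as a block. The lost ones were Pgf in ECs, Flt1, Tek and Tie1 in mural cells, Tek and Tie1 in choroid plexus cells, Tie1 in fibroblasts, Angpt2 and Tek in juvenile venous ECs and Kdr in mature venous ECs (adjusted p = 0.0551 to 0.173), while Vegfa in mural cells passed (adjusted p = 0.0371). Without that block, 1413 genes were called in mature venous ECs against 2243 with it. With the juvenile library pairs summed, Tek in juvenile venous ECs was the only member call lost among the juvenile subtypes. Fenestrated ECs then had 1 sample, which is assumed to vary like the others. Adult and EAE astrocytes, mural cells and fibroblasts were few, and the smallest difference detectable in them was not measured.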
